A study of Mus musculus with 16 samples.

Results

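Aminoacyl-tRNA synthetases were followed across 16 RNA-seq libraries of mouse ventricle. The enzymes were taken by gene symbol: 36 of the 24421 entries of the count table code for a synthetase, 20 assigned here to the cytosol and 16, whose symbols end in 2, to the mitochondrion. All 36 passed the filter on low counts, with 73 to 2780 counts per gene in each library.

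The male C57BL/6N mice were homozygous for JP2CR or were wildtype (WT) littermates. JP2CR is a knock-in allele of Jph2, the gene of junctophilin-2, from which the codons of residues 563 to 568 were removed to protect the protein from calpain, a protease. Surgery at 9 to 10 weeks of age was either a banding of the aortic arch (TAC, transverse aortic constriction) that puts the left ventricle under pressure overload or a sham operation, and ventricles were collected 5 weeks later. The groups were JP2CR TAC, JP2CR sham, WT TAC and WT sham, with 4 libraries each.

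A synthetase charges a tRNA with its amino acid, the step that gives the genetic code its accuracy. The cytosolic enzymes supply ribosomes that translate nuclear messages. A separate, nuclear-encoded set is imported into mitochondria and supplies the ribosomes that make the mitochondrially encoded subunits of the respiratory chain, on which the heart depends for ATP. When amino acids run short or other stress leads to phosphorylation of the initiation factor eIF2, the transcription factor ATF4 raises many cytosolic synthetase genes together with genes of amino acid synthesis and import.

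Library totals ran from 9966782 to 16609732 counts. Jph2 averaged 631 ± 33.3 CPM in JP2CR TAC and 686 ± 64.1 CPM in JP2CR sham, against 663 ± 24.5 CPM in WT TAC and 668 ± 37.6 CPM in WT sham (SD, n = 4 each); the deletion is in frame, so these whole-gene counts do not check the genotype. CPM are counts scaled to a common library total. All 8 ventricular muscle markers had counts in every library. The libraries JP2CR sham 3 and JP2CR sham 4 held 189 and 196 CPM of Xist, an RNA of female cells, and no counts of the 4 Y-linked genes examined, and JP2CR TAC 4 held 141 CPM of Xist beside Y-linked counts, although every library is labelled male; Xist was at or below 0.266 CPM in the other libraries. The sham and TAC libraries of JP2CR thus differ in these sex transcripts, and the TAC effect in JP2CR cannot be fully told apart from them. JP2CR TAC 3 lay between JP2CR TAC 1 and 2 in 99.3% of the 902 genes that separated those libraries by more than 5 SDs of counting error, and WT TAC 3 lay between WT TAC 1 and 2 in 99.0% of 1024 such genes. The same held for replicate 3 in 89.6% of 473 genes in WT sham and 17.2% of 93 genes in JP2CR sham. Whether replicate 3 is independent of replicates 1 and 2 was not tested, and the n = 4 of each group and all p-values take it to be. Without the 2 intermediate TAC libraries, replicate 3 of each genotype, JP2CR TAC had 6 cytosolic synthetases higher, 2 lower and 10 mitochondrial ones lower, and WT TAC had 10, 1 and 9. Of 13593 genes tested in that fit, 2330 were higher and 2307 lower in JP2CR TAC, and 2462 and 2403 in WT TAC. Which animal gave which library is not stated in the labels, and p-values rest on the spread among libraries of a group.

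After TAC the 2 sets of synthetases parted. In JP2CR ventricles 7 cytosolic synthetases were higher and 4 lower in TAC than in sham, while 10 mitochondrial synthetases were lower and 0 higher; 41.5% of all 13522 genes tested were called in that comparison, 20.7% in each direction. In WT ventricles 11 cytosolic synthetases were higher and 2 lower, and again 10 mitochondrial synthetases were lower and 0 higher, beside 41.9% of all genes, 21.1% higher and 20.8% lower. Calls are edgeR quasi-likelihood tests at a Benjamini-Hochberg adjusted p under 0.05. The median log2 fold change of TAC over sham was 0.09 for the cytosolic and -0.22 for the mitochondrial set in JP2CR, and 0.18 and -0.24 in WT; over all genes tested it was -0.00 in both genotypes.

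**Figure D1:**
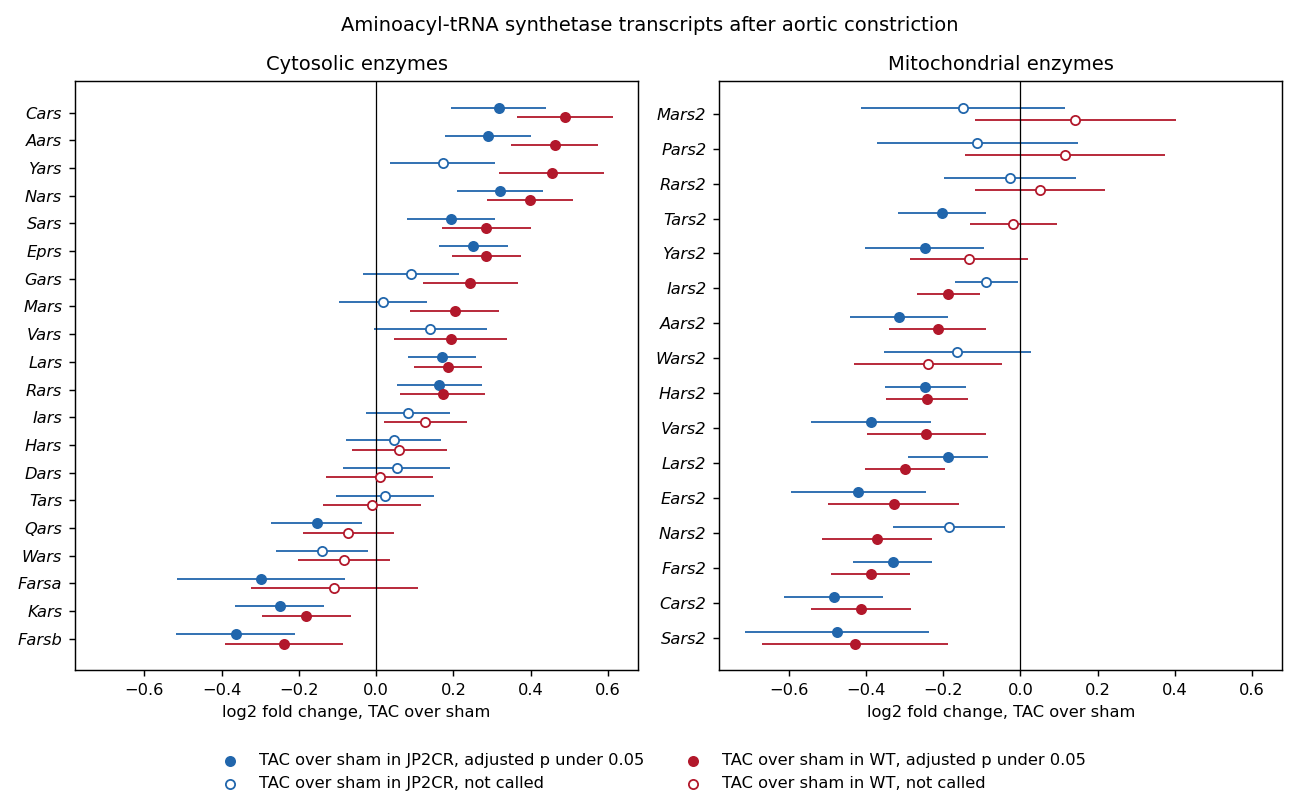
The log2 fold change of TAC over sham (x axis) is drawn for the 20 cytosolic (left) and 16 mitochondrial synthetases (right), in JP2CR (blue) and WT (red), with 95% intervals and filled points where the adjusted p was under 0.05. Filled points on the right lie below 0 in both genotypes, 10 in each. On the left 7 JP2CR and 11 WT filled points lie above 0, and 4 JP2CR and 2 WT filled points lie below 0.

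Aars, the alanyl-tRNA synthetase (chromosome 8, 111033144 to 111057664, GRCm38), had 114, 107, 118 and 101 CPM in the JP2CR TAC libraries, against 84.1, 87.2, 95.7 and 93.3 CPM in JP2CR sham. In WT it had 116, 115, 122 and 112 CPM in TAC, against 81.6, 88.2, 83.1 and 84.5 CPM in sham. Every TAC library was above every sham library of its genotype. The log2 fold change was 0.29 ± 0.06 in JP2CR (SE, adjusted p = 0.000607) and 0.46 ± 0.06 in WT (adjusted p = 5.05e-06).

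Cars, the cysteinyl-tRNA synthetase (chromosome 7, 143557230 to 143600090), gave the largest log2 fold change of the family in WT. It had 28.0, 30.3, 27.8 and 28.8 CPM in JP2CR TAC, against 22.7, 23.4, 24.9 and 20.9 CPM in JP2CR sham. In WT the libraries held 28.1, 30.1, 29.0 and 29.7 CPM in TAC, against 19.4, 22.4, 20.3 and 21.1 CPM in sham. The groups did not overlap in either genotype, and the log2 fold change was 0.32 ± 0.06 in JP2CR (adjusted p = 0.000641) and 0.49 ± 0.06 in WT (adjusted p = 8.26e-06).

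Nars, the asparaginyl-tRNA synthetase, had 126, 131, 129 and 115 CPM in JP2CR TAC, against 98.5, 97.6, 103 and 102 CPM in JP2CR sham. For WT the values were 119, 131, 128 and 142 CPM in TAC, against 103, 95.1, 101 and 95.6 CPM in sham. Again no TAC library reached down to a sham library. Nars was higher by a log2 fold change of 0.32 ± 0.06 in JP2CR (adjusted p = 0.00024) and 0.40 ± 0.06 in WT (adjusted p = 2.35e-05).

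Yars, the tyrosyl-tRNA synthetase (chromosome 4, 129189760 to 129219607), behaved less evenly. Its libraries held 48.0, 42.0, 46.3 and 38.4 CPM in JP2CR TAC, against 39.4, 37.1, 39.8 and 38.7 CPM in JP2CR sham. In WT they held 48.6, 45.0, 49.0 and 51.0 CPM in TAC, against 34.2, 37.9, 32.7 and 36.03 CPM in sham. The WT groups were apart and Yars rose, with a log2 fold change of 0.45 ± 0.07 (adjusted p = 4.8e-05), while in JP2CR the TAC 4 library lay among the sham libraries and the log2 fold change of 0.17 ± 0.07 missed the threshold (adjusted p = 0.0555). JP2CR TAC 4 is the library with both Xist and Y-linked counts. Without it the JP2CR log2 fold change of Yars was 0.23 (adjusted p = 0.0109). Leaving out each library in turn, this value ran from 0.12 to 0.23. Its adjusted p ran from 0.0109 to 0.186 over all alternatives, and the cause of the missed call was not tested.

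Eprs codes for the glutamyl- and prolyl-tRNA synthetases as a single protein (chromosome 1, 185363044 to 185428360). It had 168, 185, 174 and 175 CPM in JP2CR TAC, against 154, 145, 145 and 146 CPM in JP2CR sham, and 171, 176, 176 and 191 CPM in WT TAC, against 149, 142, 148 and 147 CPM in WT sham. The groups did not overlap, and the log2 fold change was 0.25 ± 0.05 in JP2CR (adjusted p = 0.000283) and 0.29 ± 0.05 in WT (adjusted p = 7.41e-05).

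**Figure D2:**
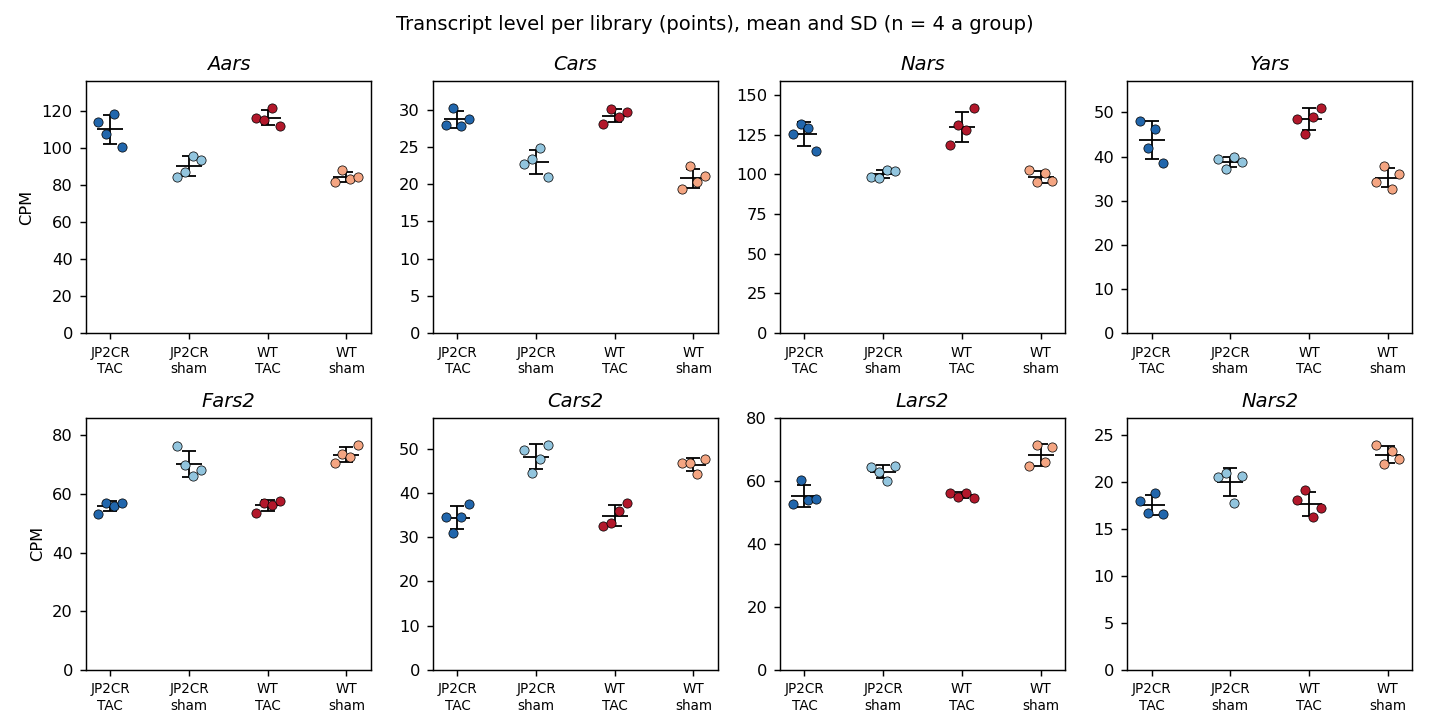
Each point is the CPM (y axis, from 0) of a library for 4 cytosolic (top row) and 4 mitochondrial synthetases (bottom row), with the mean and SD of the 4 libraries per group. Nars stood at 115 to 131 CPM in JP2CR TAC, above 97.6 to 103 CPM in JP2CR sham, while Cars2 stood at 31.1 to 37.6 CPM in JP2CR TAC, below 44.5 to 50.9 CPM in JP2CR sham.

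Of the other cytosolic synthetases, 3 were higher in TAC in both genotypes. Sars, for serine, averaged 84.8 ± 7.20 CPM in JP2CR TAC and 74.1 ± 3.96 CPM in JP2CR sham, and 87.9 ± 3.68 CPM in WT TAC and 72.1 ± 0.785 CPM in WT sham (SD, n = 4 each), with log2 fold changes of 0.19 ± 0.06 in JP2CR (adjusted p = 0.0133) and 0.29 ± 0.06 in WT (adjusted p = 0.000761). Lars, the leucyl-tRNA synthetase that also senses leucine for the growth kinase mTORC1, had log2 fold changes of 0.17 ± 0.05 in JP2CR (adjusted p = 0.0057) and 0.19 ± 0.04 in WT (adjusted p = 0.00267). Rars, for arginine, had 0.16 ± 0.06 in JP2CR (adjusted p = 0.0276) and 0.17 ± 0.06 in WT (adjusted p = 0.0209); its groups overlapped in JP2CR. Some of these calls were lost when libraries were left out: Lars in JP2CR without the 3 libraries with Xist counts (log2 fold change 0.14, adjusted p = 0.0723), Sars in JP2CR without JP2CR TAC 2 (0.13, adjusted p = 0.0572), Rars in JP2CR without JP2CR sham 1, 2 or 3 or JP2CR TAC 3 (0.12 to 0.16, adjusted p = 0.0521 to 0.112), and Rars in WT without WT sham 2, WT sham 4 or WT TAC 2 (0.13 to 0.17, adjusted p = 0.0504 to 0.0859). Sars and Rars in JP2CR also missed the threshold in a fit of only the JP2CR TAC and JP2CR sham groups (adjusted p = 0.05002 for Sars and 0.0625 for Rars).

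Another 3 cytosolic synthetases passed the test in WT alone of the 2 genotypes, beside Yars. Gars, for glycine, had a log2 fold change of 0.24 ± 0.06 in WT (adjusted p = 0.00464) and 0.09 ± 0.06 in JP2CR (adjusted p = 0.27). The Gars gene, like that of Kars below, is known to give both the cytosolic and the mitochondrial enzyme. Both genes are counted here with the cytosolic set. Vars, for valine, had 0.19 ± 0.07 in WT (adjusted p = 0.0461), with overlapping groups, and 0.14 ± 0.07 in JP2CR (adjusted p = 0.143). Mars, which charges methionine, had 67.5, 61.6, 68.1 and 69.3 CPM in JP2CR TAC, against 66.0, 61.8, 63.6 and 72.3 CPM in JP2CR sham. Its WT libraries held 66.2, 68.9, 69.4 and 72.3 CPM in TAC, against 57.0, 60.7, 58.2 and 64.2 CPM in sham. Its WT groups were apart and its JP2CR groups lay on top of each other, with log2 fold changes of 0.20 ± 0.06 in WT (adjusted p = 0.0096) and 0.02 ± 0.06 in JP2CR (adjusted p = 0.84). Mars overlaps Ddit3, which lies on the opposite strand, and the strand setting of the counting is not given in the sources used here.

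The cytosolic set did not move as a block. Kars, the lysyl-tRNA synthetase, whose gene gives both the cytosolic and the mitochondrial enzyme, fell in both genotypes: it averaged 102 ± 6.84 CPM in JP2CR TAC and 122 ± 9.31 CPM in JP2CR sham, and 103 ± 3.92 CPM in WT TAC and 116 ± 2.49 CPM in WT sham (SD, n = 4 each). Its log2 fold change was -0.25 ± 0.06 in JP2CR (adjusted p = 0.00251) and -0.18 ± 0.06 in WT (adjusted p = 0.0195), with no overlap. Farsb, the beta subunit of the phenylalanyl-tRNA synthetase, fell to 43.4 ± 3.96 CPM in JP2CR TAC, against 56.0 ± 3.64 CPM in JP2CR sham, and to 46.1 ± 4.36 CPM in WT TAC, against 54.5 ± 3.68 CPM in WT sham. The log2 fold changes of Farsb were -0.36 ± 0.08 in JP2CR (adjusted p = 0.00131) and -0.24 ± 0.08 in WT (adjusted p = 0.0201).

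Farsa, the alpha subunit of the same enzyme, and Qars, for glutamine, fell in JP2CR, with log2 fold changes of -0.30 ± 0.11 (adjusted p = 0.0385) and -0.15 ± 0.06 (adjusted p = 0.0487) and overlapping groups. In WT they had -0.11 ± 0.11 and -0.07 ± 0.06 and were not called. Iars, Hars, Tars, Dars and Wars, for isoleucine, histidine, threonine, aspartate and tryptophan, were called in neither genotype, with log2 fold changes between -0.14 and 0.08 in JP2CR and between -0.08 and 0.13 in WT. Wars is known as an interferon-induced gene; it averaged 56.3 ± 2.81 CPM in JP2CR TAC and 62.1 ± 4.21 CPM in JP2CR sham, and 55.6 ± 3.74 CPM in WT TAC and 58.9 ± 1.955 CPM in WT sham.

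The cytosolic enzymes were also read by role, in lists made with earlier results of these data known. A part of ATF4 in the response was not tested. Over all genes tested, 20.7% were higher and 20.7% lower in JP2CR TAC. In WT TAC 21.1% were higher and 20.8% lower. Of the 12 listed as ATF4 targets, 6 were higher and 0 lower in JP2CR TAC (median log2 fold change 0.17), and 9 were higher and 0 lower in WT TAC (median 0.26). Of the other 8 cytosolic enzymes, 1 was higher and 4 lower in JP2CR TAC (median -0.05), and 2 were higher and 2 lower in WT TAC (median -0.03). The 8 enzymes that form the multisynthetase complex, a cytosolic assembly held together by scaffold proteins, gave 3 higher and 2 lower in JP2CR TAC and 4 higher and 1 lower in WT TAC. The structural classes of the catalytic domain did not follow the split: the 18 class I enzymes gave 3 higher and 6 lower in JP2CR TAC and 6 higher and 5 lower in WT TAC, and the 17 class II enzymes gave 3 higher and 8 lower and 4 higher and 7 lower.

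The promoters were searched for the amino acid response element TGATGNAA, the kind of site that ATF4 binds with a C/EBP partner, on both strands over 250 bases before to 50 bases after each start in RefSeq (GRCm38.p6). Promoters were given for 27 of the 36 genes. A match was found in 5 of 13 cytosolic genes (38.5%), in 0 of 14 mitochondrial genes and in 1304 of all 32851 promoters (3.97%). The stretches that hold it in the cytosolic genes are shown, with the matching letters in capitals; where these start with TT and end with CATCA, the element lies on the other strand.
Aars, chr8:111033717-111033866, + strand: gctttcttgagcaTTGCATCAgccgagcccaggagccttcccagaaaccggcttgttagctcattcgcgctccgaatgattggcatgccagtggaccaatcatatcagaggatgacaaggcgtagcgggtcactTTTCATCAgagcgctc
Yars, chr4:129189886-129189925, + strand: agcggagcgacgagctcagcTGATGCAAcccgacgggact
Gars, chr6:55037951-55037990, + strand: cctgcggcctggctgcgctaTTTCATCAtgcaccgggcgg
Iars, chr13:49682117-49682156, + strand: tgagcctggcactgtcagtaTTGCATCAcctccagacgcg
Tars, chr15:11399654-11399693, − strand: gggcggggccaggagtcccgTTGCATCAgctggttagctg

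Aars held 2 matches and the other 4 genes held 1 each. Of these 5 genes, 1 was higher and 0 lower in JP2CR TAC (Aars), and 3 were higher and 0 lower in WT TAC (Aars, Gars and Yars). Of the 8 cytosolic genes with a promoter and no match, 2 were higher and 4 lower in JP2CR TAC, and 3 were higher and 2 lower in WT TAC. Beside both counts stand the shares of all genes tested, 20.7% higher and 20.7% lower in JP2CR TAC. For WT TAC the shares were 21.1% and 20.8%. No promoter was given for Cars, Lars, Nars and Rars, which were higher in both genotypes, for Vars, higher in WT, or for Hars and Wars. These cytosolic genes are in neither count. A relation between the element and the response was not tested. The motif of NRF1, a regulator of respiratory chain genes (GCGCA, any base, then GCGC, both strands), was found in 3 of 13 cytosolic and 2 of 14 mitochondrial genes, against 4.6% of all promoters. The ETS factor motif CCGGAAG, on both strands, was found in 5 of 13 cytosolic and 4 of 14 mitochondrial genes, against 8.86% of all promoters.

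Among the mitochondrial synthetases, Fars2, the phenylalanyl-tRNA synthetase (chromosome 13, 36117412 to 36726280), had the smallest p in WT. It had 53.2, 57.0, 56.0 and 57.0 CPM in JP2CR TAC, against 76.5, 69.8, 66.1 and 68.3 CPM in JP2CR sham. The WT libraries gave 53.5, 56.9, 56.1 and 57.7 CPM in TAC, against 70.5, 73.5, 72.7 and 76.8 CPM in sham. All TAC libraries lay below all sham libraries, and the log2 fold change was -0.33 ± 0.05 in JP2CR (adjusted p = 8.5e-05) and -0.39 ± 0.05 in WT (adjusted p = 1.33e-05).

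Cars2, the mitochondrial cysteinyl-tRNA synthetase (chromosome 8, 11513977 to 11550783), moved opposite to its cytosolic counterpart Cars. It had 34.7, 31.1, 34.5 and 37.6 CPM in JP2CR TAC, against 49.8, 44.5, 47.7 and 50.9 CPM in JP2CR sham. In WT it had 32.5, 33.2, 35.9 and 37.8 CPM in TAC, against 46.8, 46.7, 44.3 and 47.7 CPM in sham. The groups were well apart, and Cars2 fell by a log2 fold change of -0.48 ± 0.07 in JP2CR (adjusted p = 1.86e-05) and -0.41 ± 0.07 in WT (adjusted p = 7.3e-05).

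Lars2, for leucine (chromosome 9, 123366927 to 123462666), had 52.5, 60.3, 53.8 and 54.3 CPM in JP2CR TAC, against 64.5, 62.7, 59.9 and 64.6 CPM in JP2CR sham. For WT the values were 56.3, 54.9, 56.1 and 54.5 CPM in TAC, against 64.6, 71.5, 65.9 and 70.8 CPM in sham. JP2CR TAC 2 reached into the JP2CR sham libraries and the WT groups were apart. The log2 fold change was -0.19 ± 0.05 in JP2CR (adjusted p = 0.00911) and -0.30 ± 0.05 in WT (adjusted p = 0.000205).

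Ears2, which charges mitochondrial tRNA with glutamate, had 13.4, 14.8, 15.1 and 15.8 CPM in JP2CR TAC, against 19.5, 20.95, 17.5 and 21.6 CPM in JP2CR sham. Its WT libraries held 16.7, 16.997, 17.01 and 16.7 CPM in TAC, against 18.5, 19.995, 24.3 and 21.8 CPM in sham. Groups did not overlap in either genotype. The log2 fold change was -0.42 ± 0.09 in JP2CR (adjusted p = 0.00108) and -0.33 ± 0.09 in WT (adjusted p = 0.00551).

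A further 4 mitochondrial enzymes fell in both genotypes. Sars2, for serine, had the lowest log2 fold change in WT, -0.43 ± 0.12 (adjusted p = 0.0093), beside -0.47 ± 0.12 in JP2CR (adjusted p = 0.00469), from a mean of 12.1 ± 1.93 CPM in JP2CR TAC and 16.996 ± 2.04 CPM in JP2CR sham. Vars2, for valine, had -0.39 ± 0.08 in JP2CR (adjusted p = 0.000877) and -0.24 ± 0.08 in WT (adjusted p = 0.019). Aars2, for alanine, had -0.31 ± 0.06 in JP2CR (adjusted p = 0.000816) and -0.21 ± 0.06 in WT (adjusted p = 0.0121). Variants of human AARS2 are known to cause a cardiomyopathy of infancy. Hars2, for histidine, had -0.25 ± 0.05 in JP2CR (adjusted p = 0.00144) and -0.24 ± 0.05 in WT (adjusted p = 0.00153); it lies head to head with Hars and the genes overlap, so reads in the overlap can be told apart only by strand.

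The remaining calls were made in 1 genotype. Nars2, for asparagine, had 18.0, 16.7, 18.8 and 16.6 CPM in JP2CR TAC, against 20.5, 20.95, 17.8 and 20.7 CPM in JP2CR sham. The WT libraries gave 18.1, 19.2, 16.3 and 17.3 CPM in TAC, against 24.0, 21.9, 23.4 and 22.5 CPM in sham. JP2CR sham 3 sat within the JP2CR TAC libraries, and the log2 fold change was -0.18 ± 0.07 in JP2CR (adjusted p = 0.0542) and -0.37 ± 0.07 in WT (adjusted p = 0.000535). Iars2, for isoleucine, averaged 158 ± 4.14 CPM in JP2CR TAC and 168 ± 2.60 CPM in JP2CR sham, a log2 fold change of -0.09 ± 0.04 (adjusted p = 0.101), and 156 ± 5.30 CPM in WT TAC and 178 ± 6.28 CPM in WT sham, a log2 fold change of -0.19 ± 0.04 (adjusted p = 0.00151).

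Tars2, for threonine, had 52.7, 55.4, 49.0 and 57.2 CPM in JP2CR TAC, against 60.0, 59.8, 60.5 and 66.7 CPM in JP2CR sham. In WT it had 54.7, 57.3, 59.1 and 56.6 CPM in TAC, against 53.6, 58.6, 60.1 and 58.1 CPM in sham. Only the JP2CR groups were apart, with log2 fold changes of -0.20 ± 0.06 in JP2CR (adjusted p = 0.0092) and -0.02 ± 0.06 in WT (adjusted p = 0.831). Yars2, for tyrosine, had -0.25 ± 0.08 in JP2CR (adjusted p = 0.0176) and -0.13 ± 0.08 in WT (adjusted p = 0.186).

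Mars2, Pars2, Rars2 and Wars2, for methionine, proline, arginine and tryptophan, were called in neither genotype. Mars2 had 14.7, 9.68, 12.6 and 11.97 CPM in JP2CR TAC, against 13.9, 15.9, 10.4 and 14.5 CPM in JP2CR sham. For WT the values were 15.3, 13.9, 15.7 and 14.3 CPM in TAC, against 14.7, 13.0, 14.8 and 11.3 CPM in sham. Both pairs of groups overlapped, and its 95% intervals ran from -0.41 to 0.12 in JP2CR and from -0.12 to 0.40 in WT, so a change of the size seen for Cars2 in WT lay outside the WT interval. Wars2 had -0.16 ± 0.10 in JP2CR (adjusted p = 0.192) and -0.24 ± 0.10 in WT (adjusted p = 0.0595). All 16 mitochondrial log2 fold changes were negative in JP2CR, and 13 of 16 were in WT; those of Pars2 and Rars2 in JP2CR and Tars2 in WT, none of them called, turned positive without certain libraries.

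The calls of the genotypes can be set side by side. They share no library, but they come from the same fit with a shared estimate of the spread. How many of all genes tested were called in both genotypes was not counted, so the shared calls are a description. All 7 cytosolic genes called higher in JP2CR were among the 11 called higher in WT. Kars and Farsb were 2 of the 4 cytosolic genes called lower in JP2CR and both of those in WT. Of the mitochondrial genes called lower, 8 of 10 in JP2CR and 8 of 10 in WT were shared: Aars2, Cars2, Ears2, Fars2, Hars2, Lars2, Sars2 and Vars2. Groups did not overlap for 6 cytosolic genes higher in JP2CR TAC (16.8% of all genes) and for 10 mitochondrial genes lower (17.3% of all genes), and in WT for 10 cytosolic genes higher and 10 mitochondrial genes lower (21% of all genes each way).

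Within a library, the mean log2 CPM of the 20 cytosolic enzymes minus that of the 16 mitochondrial enzymes gives a difference on which library scaling has little bearing. It was 1.30 ± 0.04 in JP2CR TAC and 0.99 ± 0.08 in JP2CR sham, and 1.29 ± 0.03 in WT TAC and 0.95 ± 0.01 in WT sham (SD, n = 4 each). The lowest TAC library stood at 1.26 and the highest sham library, JP2CR sham 3, at 1.10. TAC minus sham came to 0.31 in JP2CR and 0.34 in WT, and in JP2CR to 0.37 without the 3 libraries with Xist counts. No test is given for this measure, because the genes were chosen with results of these data known.

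**Figure D3:**
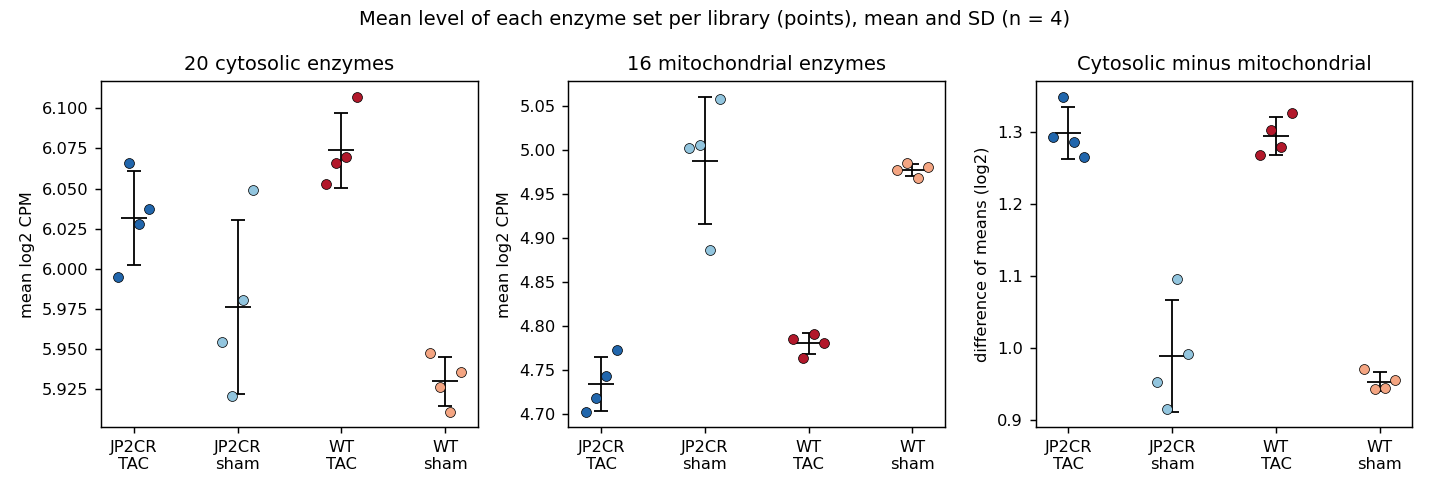
The mean log2 CPM of the 20 cytosolic enzymes (left), of the 16 mitochondrial enzymes (middle) and their difference (right) is plotted for each library, with the mean and SD of 4 libraries per group; the axes do not start at 0. In the right panel all TAC libraries lie at 1.26 or above and all sham libraries at 1.10 or below.

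For 13 amino acids a cytosolic gene has a mitochondrial partner of the same symbol with a 2 added, and the ratio of their counts in a library needs no scaling. The log2 fold change was higher for the cytosolic than for the mitochondrial gene in 13 of 13 pairs in JP2CR, by a median of 0.36, and in 13 of 13 pairs in WT, by a median of 0.44. Phenylalanine, glutamate and proline have no such pair, since Farsa and Farsb are subunits of 1 enzyme and Eprs carries 2. There the cytosolic minus the mitochondrial log2 fold change was -0.03 for Farsb and Fars2 in JP2CR, the opposite direction to the 13 pairs, and 0.15 in WT. It was 0.03 in JP2CR and 0.28 in WT for Farsa and Fars2, 0.67 and 0.61 for Eprs and Ears2, and 0.36 and 0.17 for Eprs and Pars2. Cysteine gave the widest gap: Cars had 0.808, 0.974, 0.805 and 0.767 counts per count of Cars2 in JP2CR TAC, against 0.456, 0.527, 0.521 and 0.411 in JP2CR sham, and 0.864, 0.908, 0.807 and 0.786 in WT TAC, against 0.414, 0.480, 0.458 and 0.443 in WT sham. Cars stayed below Cars2 in every library, and the TAC ratios lay above all sham ratios.

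For asparagine, Nars had 7.15 ± 0.482 counts per count of Nars2 in JP2CR TAC and 5.04 ± 0.502 in JP2CR sham, and 7.37 ± 0.794 in WT TAC and 4.29 ± 0.0358 in WT sham. For alanine the ratio was 3.04 ± 0.311 in JP2CR TAC and 1.998 ± 0.169 in JP2CR sham, and 3.10 ± 0.160 in WT TAC and 1.94 ± 0.0772 in WT sham. The ratios of TAC and sham libraries did not overlap, with TAC higher, in 8 of 13 pairs in JP2CR and 10 of 13 in WT. Methionine, arginine and threonine overlapped in both genotypes; the ratio of Tars to Tars2 was 0.729 ± 0.0630 in JP2CR TAC and 0.622 ± 0.0505 in JP2CR sham, and 0.692 ± 0.0325 in WT TAC and 0.689 ± 0.0540 in WT sham.

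**Figure D4:**
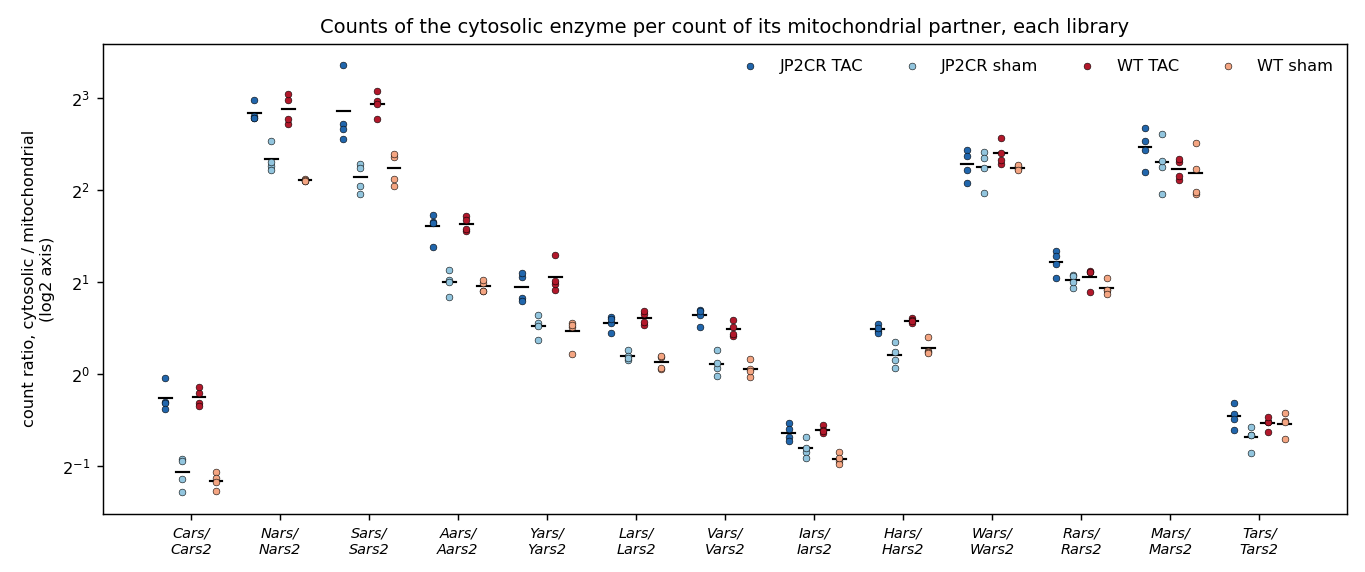
For 13 amino acids (x axis) each point gives the counts of the cytosolic gene per count of the mitochondrial gene in a library, on a log2 axis, with bars at the group means. Points of both TAC groups lie above those of their sham group for Cars/Cars2, where TAC ratios run from 0.767 to 0.974 and sham ratios from 0.411 to 0.527, and overlap with them for Tars/Tars2.

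JP2CR and WT were then compared. None of the 36 synthetases passed the test for a difference of the TAC effect between genotypes (0 of 36, beside 0.118% of all genes, 0.0887% higher and 0.0296% lower), and 4 had an unadjusted p under 0.05, all with a smaller or more negative effect in JP2CR. For Yars the difference of log2 fold changes, JP2CR minus WT, was -0.28 ± 0.10 (95% interval -0.47 to -0.09, edgeR adjusted p = 0.284). For Tars2 it was -0.19 ± 0.08 (adjusted p = 0.43) and for Mars -0.19 ± 0.08 (adjusted p = 0.438). DESeq2 and limma voom called 0 members as well. The background depended on the 3 libraries with Xist counts. Without them 213 genes were higher and 159 lower of 13740 tested, against 12 and 4 of 13522 with them. Of the 36 synthetases 0 were called there too. All 3 are JP2CR libraries, so with them genotype and these sex transcripts cannot be fully told apart. The lowest interval bound over the family was -0.66 and the highest 0.39, so differences of about the size of the TAC effects themselves were not detectable for every gene.

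In sham ventricles, 0 of 36 synthetases differed between JP2CR and WT, beside 0.0961% of all genes, and 4 had an unadjusted p under 0.05. Nars2, whose library values are given above, had the smallest p, with a log2 fold change of JP2CR over WT of -0.20 ± 0.07 (edgeR adjusted p = 0.437); its 4 JP2CR sham libraries lay below its 4 WT sham libraries, as did those of Iars2. Such gaps without overlap were found in 2.78% of all genes in that direction and 1.98% in the other. Mars (0.13 ± 0.06, adjusted p = 0.582) and Cars (0.14 ± 0.06, adjusted p = 0.583) followed, with overlapping groups. Under TAC, 0 of 36 differed, beside 0.651% of all genes, and 1, Yars, had an unadjusted p under 0.05 (-0.15 ± 0.07, adjusted p = 0.378). Ears2 (-0.19 ± 0.09, adjusted p = 0.39), with all JP2CR TAC libraries below all WT TAC libraries as in 4.13% of all genes, and Mars2 (-0.27 ± 0.13, adjusted p = 0.408) came next. DESeq2 and limma voom called 0 members in sham and in TAC. Without the 3 libraries with Xist counts, 20 of 13740 genes were higher and 44 lower in JP2CR sham than in WT sham. Under TAC 228 were higher and 150 lower in JP2CR, against 49 and 39 with those libraries. Again 0 members were called.

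Levels of different genes were compared per length, as RPKM over the union of exons in GENCODE M21. The same 3 cytosolic genes led in every group, in an order that differed with surgery. In TAC ventricles Nars stood highest, at 28.8 ± 1.73 RPKM in JP2CR and 29.8 ± 2.18 RPKM in WT, followed by Gars and then Kars, at 22.9 ± 1.53 RPKM in JP2CR and 22.97 ± 0.878 RPKM in WT (SD, n = 4 each). In sham ventricles Kars stood highest, at 27.2 ± 2.08 RPKM in JP2CR and 26.04 ± 0.558 RPKM in WT, followed by Gars and then Nars, at 23.0 ± 0.578 RPKM in JP2CR and 22.6 ± 0.841 RPKM in WT. In sham ventricles of both genotypes Gars and Nars differed by less than the SD of Gars. The highest mitochondrial enzyme was Iars2 in every group, ranked 8 in JP2CR TAC, 7 in JP2CR sham, 9 in WT TAC and 6 in WT sham. Mars2 was lowest in every group, at 1.08 RPKM in JP2CR TAC and 1.21 RPKM in JP2CR sham, and 1.31 RPKM in WT TAC and 1.19 RPKM in WT sham. The union counts all annotated isoforms, so genes with long alternative isoforms read low.

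The surroundings of the synthetases were read from gene lists. Beside the counts of each list, 20.7% of all genes tested were higher and 20.7% lower in JP2CR TAC. In WT TAC 21.1% were higher and 20.8% lower. Among 15 partners of the enzymes, 1 was higher and 5 lower in JP2CR TAC and 3 were higher and 6 lower in WT TAC, with median log2 fold changes of -0.19 in JP2CR and -0.20 in WT. Aarsd1, a cytosolic protein that clears mischarged alanyl-tRNA, had the smallest p, with a log2 fold change of -0.68 ± 0.08 in JP2CR (adjusted p = 2.72e-06) and -0.62 ± 0.08 in WT (adjusted p = 5.06e-06). The GatCAB amidotransferase makes the glutaminyl-tRNA of mitochondria, which have no glutaminyl-tRNA synthetase of their own. Its Gatb subunit had -0.28 ± 0.06 in JP2CR (adjusted p = 0.00118) and -0.31 ± 0.06 in WT (adjusted p = 0.000395), and its Gatc subunit -0.34 ± 0.08 in JP2CR (adjusted p = 0.00258) and -0.40 ± 0.08 in WT (adjusted p = 0.000566).

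Of 9 mitochondrial translation factors 4 were lower and 0 higher in each genotype; the elongation factor Gfm1 had a log2 fold change of -0.24 ± 0.05 in JP2CR (adjusted p = 0.000987) and -0.24 ± 0.05 in WT (adjusted p = 0.000923), and Tufm, which brings charged tRNA to the mitochondrial ribosome, -0.23 ± 0.05 in JP2CR (adjusted p = 0.00157) and -0.17 ± 0.05 in WT (adjusted p = 0.0112). The 77 mitochondrial ribosomal proteins gave 2 higher and 44 lower in JP2CR and 5 higher and 37 lower in WT. The respiratory chain gave 0 higher and 73 lower of 81 in JP2CR and 0 higher and 70 lower in WT. Beside them, 10 of 16 mitochondrial synthetases were lower in each genotype. The shares over all genes tested were 20.7% higher and 20.7% lower in JP2CR TAC, and 21.1% and 20.8% in WT TAC.

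Of 7 cytosolic elongation factors, 2 were higher and 1 lower in JP2CR TAC and 0 were higher and 1 lower in WT TAC. Eef1d, an exchange factor for the factor that carries charged tRNA, had -0.26 ± 0.05 in JP2CR (adjusted p = 0.000305) and -0.17 ± 0.05 in WT (adjusted p = 0.00784). Eef1g went the other way, with 0.15 in JP2CR (edgeR adjusted p = 0.0341) and 0.14 in WT, where it was not called. Its JP2CR call was lost in 7 of the fits that left out a library. The 75 cytosolic ribosomal proteins tested gave 1 higher and 13 lower in JP2CR and 15 higher and 2 lower in WT. Of all genes tested, 20.7% were higher and 20.7% lower in JP2CR TAC, and 21.1% were higher and 20.8% lower in WT TAC.

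Of 30 tested genes of the amino acid response, 13 were higher and 3 lower in JP2CR TAC and 11 were higher and 4 lower in WT TAC, with median log2 fold changes of 0.32 and 0.23. Beside these counts, all genes tested gave 20.7% higher and 20.7% lower in JP2CR TAC, and 21.1% and 20.8% in WT TAC. Members of the amino acid response list went both ways. Slc38a2, a neutral amino acid importer, had 0.59 ± 0.09 in JP2CR (adjusted p = 5.05e-05) and 0.98 ± 0.09 in WT (adjusted p = 1.92e-07). Slc7a1, an importer of arginine and lysine, had -0.78 ± 0.06 in JP2CR (adjusted p = 3.54e-08) and -0.99 ± 0.06 in WT (adjusted p = 1.71e-09), and Gpt2, a mitochondrial alanine aminotransferase, had -0.94 ± 0.09 in JP2CR (adjusted p = 5.11e-07) and -1.16 ± 0.09 in WT (adjusted p = 3.79e-08). The transcript of Atf4 itself, named here after its values were seen, had 0.24 ± 0.10 in JP2CR (adjusted p = 0.0589) and 0.58 ± 0.10 in WT (adjusted p = 0.000145); the difference between genotypes is not read from these calls.

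The next 2 lists stand beside 20.7% of all genes tested higher and 20.7% lower in JP2CR TAC. For WT TAC the shares were 21.1% and 20.8%. Of 15 genes of eIF2 kinases and their regulators, 4 were higher and 0 lower in JP2CR TAC and 3 were higher and 0 lower in WT TAC; Ppp1r15a, which directs the removal of phosphate from eIF2, had 0.53 ± 0.10 in JP2CR (adjusted p = 0.000518) and 0.80 ± 0.10 in WT (adjusted p = 6.94e-06). Of 22 interferon response genes, 3 were higher and 3 lower in JP2CR TAC and 9 were higher and 2 lower in WT TAC; Ifit2 had 0.65 ± 0.07 in JP2CR (adjusted p = 1.66e-06) and 0.96 ± 0.07 in WT (adjusted p = 1.82e-08), while the interferon-induced synthetase Wars was called in neither.

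**Figure D5:**
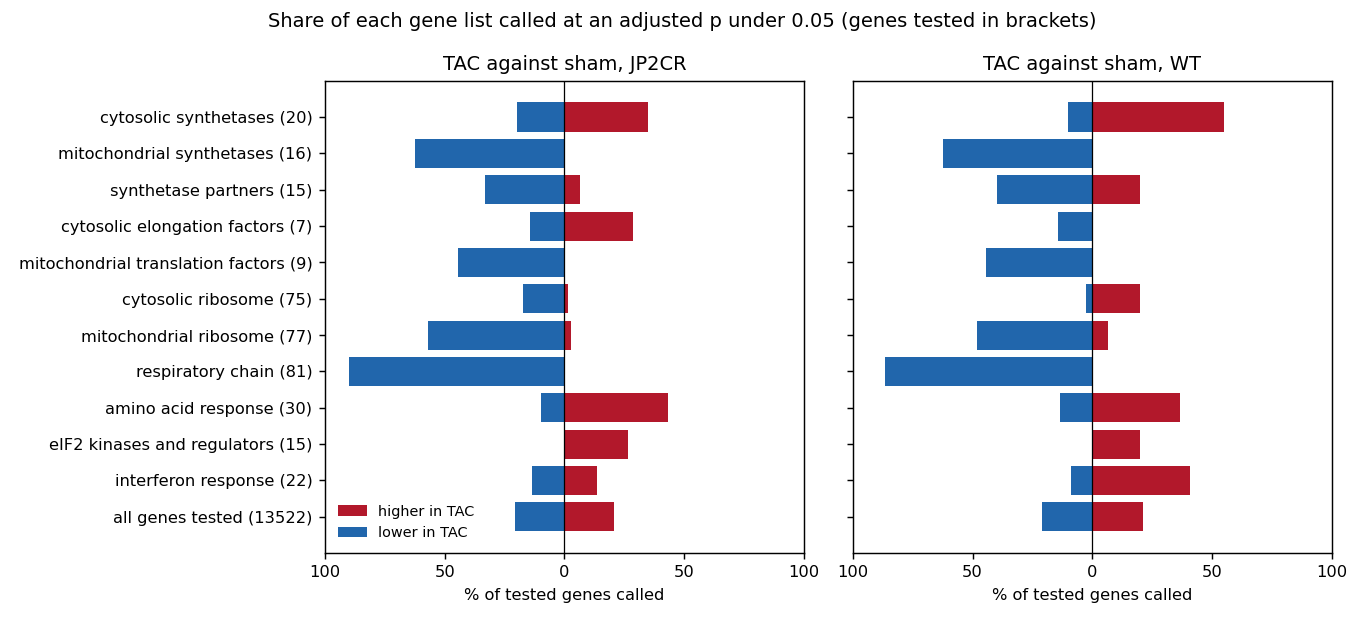
Bars give the percentage of the tested genes of each list (number in brackets) called higher (right of 0) or lower (left of 0) in TAC, in JP2CR (left panel) and WT (right panel). Mitochondrial synthetases have bars to the left alone, 10 of 16 in each panel, as has the respiratory chain. Cytosolic synthetases have 7 of 20 to the right and 4 to the left in JP2CR, and 11 and 2 in WT.

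Levels of cell type markers moved with TAC as well. Their calls stand beside 20.7% of all genes higher and 20.7% lower in JP2CR TAC. In WT TAC these shares were 21.1% and 20.8%. The 8 ventricular muscle markers summed to 62722 to 68179 CPM in JP2CR TAC and 80596 to 102963 CPM in JP2CR sham, and to 62251 to 66153 CPM in WT TAC and 84988 to 89435 CPM in WT sham. Of 12 macrophage markers 9 were higher and 0 lower in JP2CR TAC and 10 were higher and 1 lower in WT TAC; of 8 ventricular muscle markers 6 were lower in JP2CR TAC and 5 in WT TAC, with 0 higher, and 8 of 8 cycling cell markers were higher in both. The 12 macrophage markers, all with counts in every library, summed to 521 to 616 CPM in JP2CR TAC and 363 to 444 CPM in JP2CR sham, and to 464 to 523 CPM in WT TAC and 351 to 388 CPM in WT sham. Of the 10 fibroblast markers 4 were higher and 2 lower in JP2CR TAC, with a median log2 fold change of 0.08, and 4 were higher and 1 lower in WT TAC, with a median of 0.15; they summed to 2732 to 3402 CPM in JP2CR TAC and 1561 to 2066 CPM in JP2CR sham, and to 2635 to 3908 CPM in WT TAC and 1889 to 1929 CPM in WT sham. The 8 cycling cell markers summed to 38.2 to 55.0 CPM in JP2CR TAC and 9.44 to 25.1 CPM in JP2CR sham, and to 31.4 to 54.9 CPM in WT TAC and 12.1 to 14.7 CPM in WT sham. The 8 Schwann cell and nerve markers summed to 15.7 to 19.4 CPM in JP2CR TAC and 27.6 to 40.4 CPM in JP2CR sham, and to 11.6 to 15.2 CPM in WT TAC and 34.9 to 46.4 CPM in WT sham, with 5 of the 6 tested lower in JP2CR and 6 of 6 in WT. Of 10 smooth muscle and pericyte markers 1 was higher and 4 lower in JP2CR TAC and 1 was higher and 6 lower in WT TAC. Of 5 B and plasma cell markers tested 4 were higher and 0 lower in JP2CR TAC and 0 were higher and 1 lower in WT TAC, and of 10 endothelial markers 0 were higher and 2 lower in JP2CR TAC and 0 were called in WT. Of 10 adipocyte markers 0 were higher and 9 lower in WT TAC, with 0 called in JP2CR, and of 10 atrial muscle markers 0 were higher and 5 lower in JP2CR TAC and 1 was higher and 9 lower in WT TAC. The part of any of these cell types in the synthetase results was not tested, and in bulk tissue fewer cells of a type and less RNA per cell cannot be told apart.

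In the authors' deposited table, 11 cytosolic synthetases were higher and 2 lower in WT TAC and 10 mitochondrial synthetases were lower, and the 13 cytosolic and 10 mitochondrial calls were of the same genes and directions as those made here. For JP2CR the authors' deposited table had 6 cytosolic synthetases higher and 2 lower and 10 mitochondrial synthetases lower; it shared 8 of the 11 cytosolic calls made here and all 10 mitochondrial calls.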

How the data were processed

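Per the labels' protocols, poly(A) RNA of ventricles went into a stranded library kit. The submitters' processing notes name the mm10 build and, among other tools, STAR 2.5.0b and DESeq2 1.6.3. How reads were counted (tool, annotation, strand) is not given in the sources used here. The authors deposited whole-number read counts for each gene symbol, without normalization. The authors also deposited log2 fold changes and adjusted p-values of their own, and other values in mixed columns of their table that were not used here. In edgeR 4.0.16 (R 4.3.3) low genes were dropped with filterByExpr, libraries were scaled by TMM, all 16 libraries were fitted with 1 mean per group and each contrast was given a quasi-likelihood F test; 13522 genes were tested in each of 5 comparisons and called at a Benjamini-Hochberg adjusted p under 0.05. The SE is the size of the log2 fold change divided by the square root of F. CPM use TMM-scaled totals, and mean log2 CPM a prior count of 2. At these depths 3 counts, the limit that a count of 0 allows, are 0.185 to 0.314 CPM, for counting error alone.

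The members and lists were chosen with earlier results of these data known. Values in every library are given for the 5 cytosolic and 3 mitochondrial members with the smallest p in WT TAC against sham, the 3 with the smallest p in each other comparison, and the highest and lowest by RPKM; called members are named up to 12 a comparison, and of each list up to 3 genes. Of the members, 11 overlap another coding gene: Aars on the same strand as Exosc6, and Cars2, Ears2, Fars2, Farsb, Hars, Hars2, Iars2, Mars, Wars and Yars on the opposite strand of another gene. Alternatives were DESeq2 1.42.0, limma voom (limma 3.58.1), other scaling factors, other filters, a replicate block, a fit restricted to the groups of each comparison, a threshold of 0.01 on the adjusted p, and leaving out libraries; recomputing the compartment difference without certain libraries was chosen after seeing the data. The main edgeR fit was checked on simulated counts, for TAC against sham in WT and for the difference of the TAC effect between genotypes. The other comparisons and the alternatives were not checked in this way. Figures were drawn with matplotlib 3.10.9.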

Additional observations from a re-analysis of the deposited data

Results flagged for a closer look

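Of 56 sets of 4 libraries examined (the 13 members described library by library and the compartment difference, in each group), 3 held a library far from the rest by Dixon's criterion, which chance alone meets in about 1 in 20 sets. All 3 were JP2CR sham libraries. Eprs stood at 154 CPM in JP2CR sham 1, above 145 to 146 CPM in the other libraries of the group. Nars2 stood at 17.8 CPM in JP2CR sham 3, below 20.5 to 20.95 CPM. Tars2 stood at 66.7 CPM in JP2CR sham 4, above 59.8 to 60.5 CPM. JP2CR sham 3 and 4 are the libraries with Xist and without Y-linked counts.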

How the results depend on the processing

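No called result reversed its direction under the alternatives run. Of the genes that were not called, 9 values changed sign, 23 times in all. They lay near 0 except that of Pars2 in JP2CR, at -0.11, which became 0.0022 without JP2CR sham 4. None was called where it changed sign, and the cause was not tested. For log2 fold changes of TAC over sham these were Rars2 (0.0277) and Eef2 (0.0809) in JP2CR without the 3 libraries with Xist counts, Eef2 in JP2CR with no filter on low counts (0.0032) and Tars in WT without the 2 intermediate TAC libraries (0.0035). Leaving out each library, the JP2CR values ran from -0.0064 to 0.0798 for Hars, -0.0118 to 0.0689 for Mars, -0.0377 to 0.0750 for Tars, -0.194 to 0.0022 for Pars2, -0.0804 to 0.0226 for Rars2 and -0.0479 to 0.0306 for Eef2, and the WT values from -0.0411 to 0.0564 for Dars, -0.0456 to 0.0071 for Tars and -0.0505 to 0.00078 for Tars2. The 10 mitochondrial calls and the cytosolic higher calls moved by less than 1.5 times throughout. The cytosolic calls in the lower direction moved: in WT TAC 2 became 0 at an adjusted p under 0.01 and 1 without the 2 intermediate TAC libraries, replicate 3 of each genotype. In JP2CR TAC 4 became 2 at an adjusted p under 0.01, with no filter on low counts, with only the groups compared, and without the 2 intermediate TAC libraries; the cause was not tested. Leaving out each library in turn, JP2CR TAC gave 6 to 9 cytosolic calls higher, 2 to 5 lower and 9 to 11 mitochondrial calls lower, and WT TAC gave 9 to 12, 1 to 2 and 9 to 11. The JP2CR count of 2 came without JP2CR sham 3, JP2CR sham 4, JP2CR TAC 1, 2 or 3, and the WT count of 1 without WT sham 1, WT TAC 1, 2 or 3. The compartment difference, TAC minus sham, ran from 0.28 to 0.34 in JP2CR and from 0.33 to 0.35 in WT. Calls held under all alternatives for 6 of 11 cytosolic and 9 of 10 mitochondrial members in JP2CR, and for 9 of 13 and 8 of 10 in WT. Those lost most often were Qars (20 alternatives) and Farsa (10) in JP2CR and Vars (15) in WT. Without the 3 libraries with Xist counts, Qars in JP2CR had a log2 fold change of -0.085 (edgeR adjusted p = 0.284) and was not called. Yars was called there (0.25, adjusted p = 0.0222) and Lars was lost, as given above. Of 13740 genes tested in that fit, 2539 were higher and 2397 lower in JP2CR TAC than in JP2CR sham. The comparisons of JP2CR with WT gave 0 member calls throughout.

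Replicate numbers did not pair the libraries: of 24 same-number pairs 1 had deviations correlated above 0.1 (lowest -0.19, highest 0.11), and 2 of 16 libraries correlated best with their own number. With the number as a replicate block, JP2CR TAC gave 7 cytosolic calls higher, 3 lower in place of 4 (Qars missed the threshold, adjusted p = 0.0505), and 10 mitochondrial calls lower, while WT TAC gave 11, 2 and 10 as without it.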
